A study of Homo sapiens with 14 samples.

Results

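Messenger RNA of 10 imprinted genes was followed in SK-N-BE2 cells, a line established from neuroblastoma in which MYCN is amplified. The genes were MEST, CDKN1C, DLK1, PEG3, PEG10, IGF2, PLAGL1, NDN, GRB10 and SGCE, 10 of the 19923 protein-coding genes in the tables, found by gene name. They were picked with their changes in these libraries already known, so every value of treated against control cells below is a description with no test. The 14 libraries formed 7 groups of 2 replicates in 2 batches. Batch 1 held cells of wild-type genotype that received water (H2O) or CoCl2 at 10 or 50 µM, with the duration not given in the labels. CoCl2 is a cobalt salt that many laboratories use to keep hypoxia-inducible factors from being degraded. Batch 2 held untreated cells labelled WT and cells labelled TET2KO 1, 2 and 3, that is, knockouts of TET2, an enzyme that oxidises methylated cytosine in DNA. How the knockouts were made, and whether each number is 1 clone, is not given in the sources used here. All groups were grown in the same serum-containing medium. The study asked how DNA hydroxymethylation and Polycomb repression relate in such cells.

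Imprinted genes are expressed mainly from the copy inherited from 1 parent, because DNA methylation set in the egg or sperm marks the other copy or a control region nearby. Many of them act on fetal growth. DLK1 and IGF2 are well known in cells of the sympathoadrenal lineage, from which neuroblastoma arises. TET enzymes act on the same methyl groups that mark imprinted copies. Counts per gene do not separate the 2 parental copies, so a level here is the sum of both.

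The sequence at the starts of MEST is shown because MEST had the largest difference of the 10 genes in batch 2. MEST has several start sites in RefSeq, and the imprinted transcript begins at a downstream one. Windows from RefSeq (GRCh38.p14, plus strand) run from 250 bases before to 50 bases after a start, and capitals mark the dinucleotide CG, the target of DNA methylation, which reads the same on both strands. The first window is chr7:130486097-130486396, at the start site at 130486347, and the second is chr7:130491835-130492134, at the start site at 130492085.
MEST upstream start: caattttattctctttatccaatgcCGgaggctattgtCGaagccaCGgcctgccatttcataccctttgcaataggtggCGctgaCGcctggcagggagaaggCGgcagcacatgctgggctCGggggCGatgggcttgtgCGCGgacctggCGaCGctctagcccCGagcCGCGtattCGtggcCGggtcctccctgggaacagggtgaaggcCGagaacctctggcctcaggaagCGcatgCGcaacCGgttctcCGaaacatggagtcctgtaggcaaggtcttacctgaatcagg
MEST downstream start: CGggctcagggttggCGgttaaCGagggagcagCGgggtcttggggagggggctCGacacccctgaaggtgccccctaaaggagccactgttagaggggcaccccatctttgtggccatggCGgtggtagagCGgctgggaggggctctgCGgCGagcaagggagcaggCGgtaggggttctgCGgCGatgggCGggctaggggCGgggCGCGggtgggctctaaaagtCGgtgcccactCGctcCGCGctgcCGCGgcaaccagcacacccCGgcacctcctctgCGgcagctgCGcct
The upstream window held 22 CG at 60.3% G plus C, and 37.7% of all 35116 windows of 300 bases held at least as many. The downstream window held 25 CG at 70.3% G plus C, and 32.0% of windows held at least as many. At least 1 CG stood in 96.0% of windows, with a median of 14. Both start sites lay inside exons of the deposited gene model, so reads from either transcript entered 1 count. Windows were found for 4 of the 10 genes, MEST, PLAGL1, NDN and GRB10.

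The libraries of batch 1 summed to between 31214128 and 39540111 counts, and those of batch 2 to between 52095024 and 59263320. Between 77.3% and 80.5% of the counts from 1 to 10 were even in batch 2, against 39.0% to 42.3% in batch 1, so that most batch 2 counts came in pairs. All comparisons were made within a batch, and batch and culture cannot be told apart in levels set across the batches. Nothing says that replicates were separate cultures, so p-values measure the spread between these libraries only. TET2 mRNA, checked first, was 70.8 and 64.8 CPM (counts scaled to the library total) in WT, 80.4 and 76.6 in TET2KO 1, 87.4 and 91.1 in TET2KO 2 and 68.2 and 75.4 in TET2KO 3. It rose by 0.21 on the log2 scale in TET2KO 1 and by 0.40 in TET2KO 2 (edgeR adjusted p 6.64e-04 and 3.86e-12), its value in TET2KO 3 was 0.08 (adjusted p 0.301), and the groups are named by their labels throughout. All 11 sympathoadrenal markers had counts in every group, and their summed level was 6620 to 12624 CPM. In bulk RNA, fewer cells expressing a gene and less RNA per cell cannot be told apart.

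The 10 genes spanned a wide range of levels. Per kilobase of exon, DLK1, a transmembrane protein that acts on Notch receptors, was the highest in all 7 groups, at a mean of 152 CPM per kilobase in H2O and 237 in WT. PEG10, a protein derived from a retrotransposon capsid, came next at 90.8 and 69.6. IGF2, a fetal growth factor, was next at 7.36 in H2O and 18.5 in WT. CDKN1C, an inhibitor of cyclin-dependent kinases, and SGCE, a sarcoglycan of the cell membrane, followed in H2O at 4.89 and 2.75. In WT the fourth place belonged to MEST, a hydrolase-like membrane protein, at 6.41, ahead of SGCE at 1.85. NDN, a neuronal growth suppressor of the MAGE family, stood at 0.120 and 0.477. PLAGL1, a zinc finger factor, GRB10, an adaptor that dampens insulin and IGF receptor signalling, and PEG3, a zinc finger protein, were each at most 0.0368 in every group. The libraries of adjacent genes overlapped in this order only among the genes from sixth place down, for example NDN and MEST at both CoCl2 doses and PLAGL1 and PEG3 in WT. The IGF2 level is a lower limit of its reads, since 70.7% of its exonic bases are shared with the annotated read-through gene AC132217.2 on the same strand, where featureCounts leaves reads unassigned by default. Such overlaps were 12.9% for PEG3 (ZIM2), 4.78% for MEST (COPG2, opposite strand) and 3.27% for PEG10 (SGCE, opposite strand), and strand was not used in counting.

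**Figure D1:**
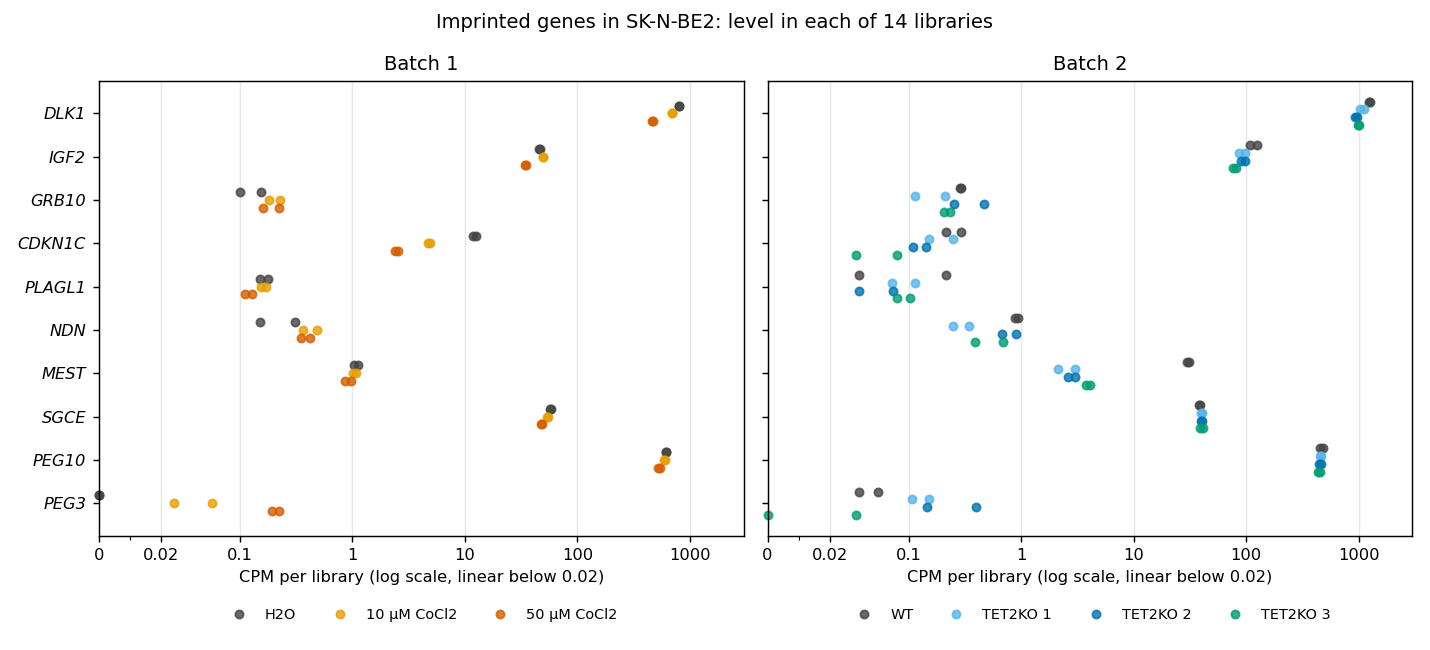
Level of each gene (rows) in each library (points) in CPM, on a scale that is logarithmic above 0.02 CPM and linear below it, for batch 1 (left) and batch 2 (right), coloured by group. CDKN1C separates the 3 groups of batch 1, MEST separates WT from the labelled knockouts in batch 2, and both genes sit at different levels in the controls of the 2 batches.

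MEST and CDKN1C stood at very different levels in the unedited, untreated cells of the 2 batches. MEST was at 1.12 and 1.03 CPM in H2O but at 30.0 and 31.1 CPM in WT. CDKN1C went the other way, at 12.6 and 11.7 CPM in H2O and at 0.291 and 0.214 CPM in WT. Among the other members the mean in WT was between 0.672 and 3.97 times the mean in H2O, leaving out PEG3, which had no count in H2O. These ratios compare libraries of 2 batches, counted with different featureCounts versions, and were not tested.

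CoCl2 was accompanied by lower CDKN1C and DLK1 at both doses, and at 50 µM also by lower IGF2, PEG10 and SGCE. Of the 10 genes, 7 passed the filter on low counts in batch 1, and PEG3, PLAGL1 and GRB10 did not. A gene is called at an adjusted p under 0.05. At 10 µM, 2 of the 7 were called, both lower, where 11.1% of the 13636 genes tested were called lower and 11.6% higher. At 50 µM, 5 were called, all lower, where 31.1% of all genes were called lower and 30.4% higher. Nothing is read from these counts, since the genes were chosen from these contrasts. The median log2 fold change of the 7 was -0.05 at 10 µM and -0.26 at 50 µM, against 0.00 over all genes tested at both doses.

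CDKN1C (chromosome 11, 2883213 to 2885773, minus strand) was at 12.6 and 11.7 CPM in H2O, at 4.84 and 4.73 CPM with 10 µM and at 2.53 and 2.41 CPM with 50 µM. The groups did not overlap, and each dose lay below the one before it. Its log2 fold change was -1.34 (SE 0.09) at 10 µM, the 39th largest of 13636 genes in either direction, and -2.30 (SE 0.11) at 50 µM, which left 20.4% of the H2O mean. DLK1 (chromosome 14, 100725705 to 100738224, plus strand) was at 803 and 796 CPM in H2O, 696 and 690.0 CPM with 10 µM and 460.3 and 473 CPM with 50 µM. Again no group overlapped another, and the log2 fold changes were -0.21 (SE 0.02) and -0.78 (SE 0.02). IGF2 (chromosome 11, 2129112 to 2141238, minus strand) did not follow the dose: it was at 46.2 and 45.9 CPM in H2O, 49.2 and 49.2 CPM with 10 µM, and 34.3 and 35.2 CPM with 50 µM. Its log2 fold change was 0.10 (SE 0.04) at 10 µM and -0.40 (SE 0.04) at 50 µM.

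PEG10 and SGCE lie head to head on chromosome 7 (PEG10 at 94656325 to 94669695, plus strand, and SGCE at 94524204 to 94656572, minus strand), and both moved little. PEG10 was at 606 and 608 CPM in H2O, 589.6 and 595 CPM with 10 µM, and 542 and 522 CPM with 50 µM. SGCE was at 57.2 and 57.8 CPM, then 53.9 and 54.8 CPM, then 48.3 and 47.5 CPM. For this pair the 50 µM libraries were the lowest without overlap, at 87.5% and 83.3% of the H2O means. MEST was low in this batch, with 27 to 44 counts per library, and log2 fold changes of -0.05 (SE 0.24) and -0.22 (SE 0.25). NDN had 12 and 6 counts in H2O, 17 and 14 with 10 µM, and 11 and 15 with 50 µM, and its log2 fold changes were 0.87 (SE 0.45) and 0.76 (SE 0.47). PEG3 had 0 counts in both H2O libraries, 2 and 1 with 10 µM, and 6 and 8 with 50 µM, so that its level at 50 µM was at least 5.49-fold higher than a floor of 3 counts over the H2O group. GRB10 had 4 to 8 counts per library and PLAGL1 4 to 7.

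Between the doses, CDKN1C, DLK1, IGF2, PEG10 and SGCE fell. This comparison is the difference between the 2 comparisons with H2O from which the genes were chosen. The genes that fell made up 5 of the 7 tested, where 26.5% of all genes fell and 26.2% rose between 10 and 50 µM. Nothing is read from this count, and the p-values below are no separate support. CDKN1C fell by 0.96 on the log2 scale (SE 0.14, edgeR adjusted p 9.28e-10), DLK1 by 0.57 (SE 0.02, adjusted p 2.50e-75) and IGF2 by 0.50 (SE 0.04, adjusted p 4.32e-23). PEG10 fell by 0.16 (SE 0.02, adjusted p 4.11e-16) and SGCE by 0.18 (SE 0.04, adjusted p 1.03e-05). The values of MEST (-0.17, adjusted p 0.612) and NDN (-0.11, adjusted p 0.845) did not pass, and NDN had too few counts to show a difference of that size.

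**Figure D2:**
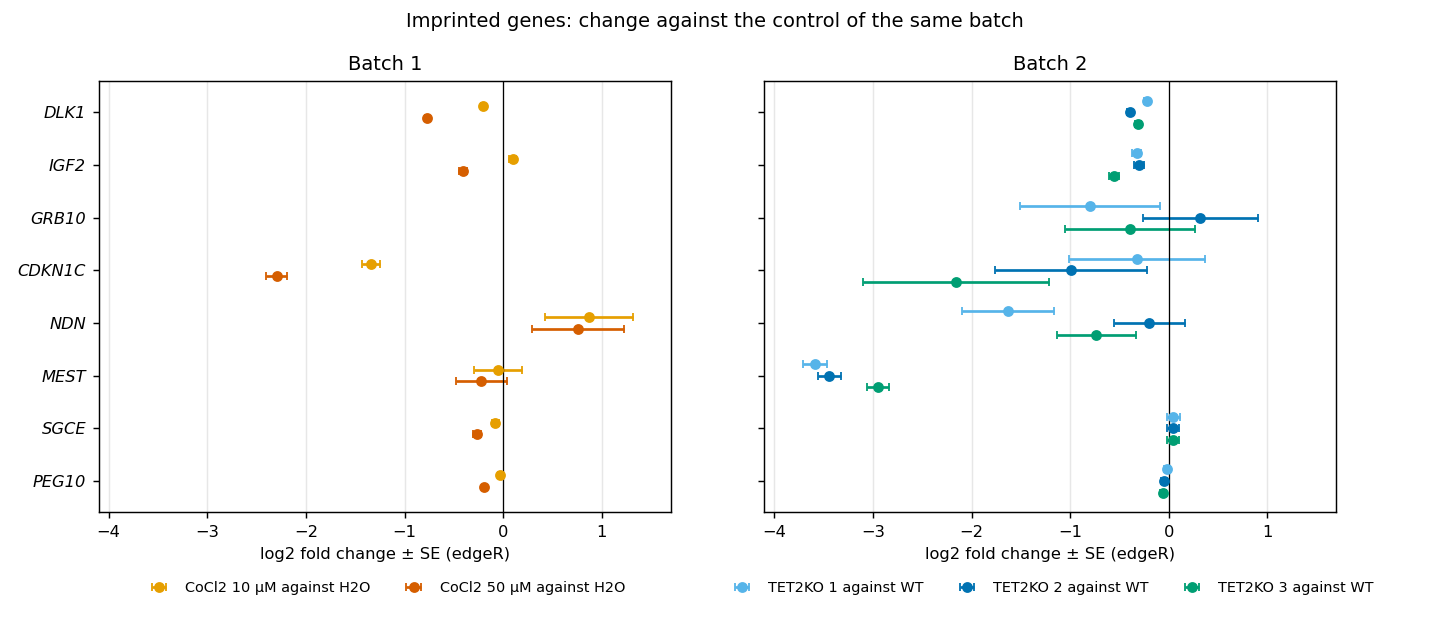
Log2 fold change with its standard error (bars) against H2O in batch 1 (left) and against WT in batch 2 (right) for the genes that passed the filter on low counts, 1 colour per comparison, and a line at 0. CDKN1C is the farthest from 0 in batch 1 at both doses, and MEST is the farthest in batch 2 in each labelled knockout.

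Of the nearest tested genes on each side of CDKN1C and DLK1, KCNQ1, RTL1 and BEGAIN also had lower mRNA with CoCl2, and SLC22A18 did not. Over all genes, 11.1% were called lower at 10 µM and 31.1% at 50 µM. Left of CDKN1C at 34.1 kb, the imprinted potassium channel gene KCNQ1 fell by 0.77 on the log2 scale at 10 µM (SE 0.24, edgeR adjusted p 0.0132) and by 1.41 at 50 µM (SE 0.28, adjusted p 4.58e-06), on 59 and 48 counts in H2O, 28 and 31 with 10 µM, and 19 and 15 with 50 µM. SLC22A18, an imprinted transporter gene on the other side at 13.9 kb, had log2 fold changes of 0.00 and 0.07 (adjusted p 0.996 and 0.649). Right of DLK1 at 142 kb, the imprinted retrotransposon-derived gene RTL1 was at 7.59 and 7.97 CPM in H2O, 5.75 and 5.17 CPM with 10 µM, and 2.27 and 2.18 CPM with 50 µM. RTL1 fell, with log2 fold changes of -0.51 (SE 0.10, adjusted p 1.09e-05) and -1.80 (SE 0.13, adjusted p 1.70e-29), and at 50 µM it was left with 28.6% of the H2O mean, against 58.4% for DLK1. BEGAIN, the neighbour on the far side of DLK1 at 138 kb, fell too, at -0.27 and -0.56 (edgeR adjusted p 1.06e-05 and 9.84e-18).

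**Figure D3:**
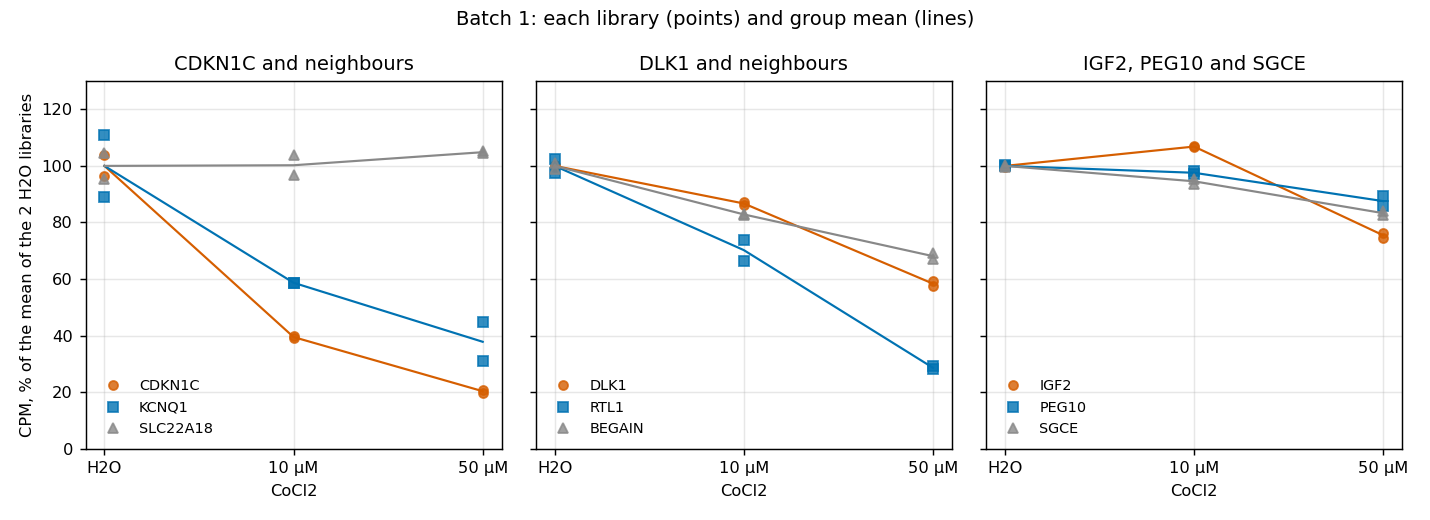
CPM of each batch 1 library (points) and group means (lines) as a percentage of the mean of the 2 H2O libraries, for CDKN1C, DLK1 and the genes next to each, and for IGF2, PEG10 and SGCE. CDKN1C, KCNQ1, DLK1, RTL1 and BEGAIN are lower at each dose, SLC22A18 stays near 100%, and IGF2 is lower only at 50 µM.

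The genes most like CDKN1C across the 6 batch 1 libraries, by Pearson correlation of log2 CPM, were CAPN6 (0.999), TMEM179 (0.998) and COL9A2 (0.997), of 730 genes whose SD was at least 0.5 times that of CDKN1C. These libraries fall into 3 groups, so the values restate a common order of the groups. CAPN6 was at 56.5 and 56.7 CPM in H2O, 32.9 and 31.9 CPM with 10 µM, and 22.4 and 21.9 CPM with 50 µM, an order that its choice by correlation fixed.

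In batch 2 the main difference was in MEST, which was 7.73 to 12.0 fold lower in each labelled knockout, while DLK1 and IGF2 were modestly lower in all 3. Here 8 of the 10 genes passed the filter, and PEG3 and PLAGL1 did not. Called were 4 of the 8 in TET2KO 1, all lower (MEST, DLK1, IGF2 and NDN), where 9.72% of the 14061 genes tested were called lower and 7.79% higher. In TET2KO 2, 3 were called lower (MEST, DLK1 and IGF2), where 14.3% of genes were lower and 12% higher. The same 3 were called in TET2KO 3, where 9.96% of genes were lower and 8.9% higher. As before, these counts describe the choice of genes. Their median log2 fold change was -0.32, -0.25 and -0.48 in TET2KO 1, 2 and 3, against 0.00 over all genes tested in each.

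MEST (chromosome 7, 130486171 to 130506465, plus strand) was at 30.0 and 31.1 CPM in WT. It was at 3.00 and 2.12 CPM in TET2KO 1, 3.01 and 2.61 CPM in TET2KO 2, and 4.08 and 3.80 CPM in TET2KO 3. All 6 labelled knockout libraries lay far below both WT libraries, and TET2KO 3 lay above both others. The log2 fold changes were -3.58 (SE 0.12), -3.44 (SE 0.12) and -2.95 (SE 0.11), a drop of 12.0, 10.9 and 7.73 fold. By absolute size they ranked 35th, 24th and 67th of 14061 genes. Even so the lowest of these libraries held more MEST than any batch 1 library, where the highest value was 1.12 CPM.

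Of the genes around MEST, CPA4 was lower too, and neither of the 2 closest genes was called. COPG2, a coat protein gene whose end overlaps that of MEST on the other strand, had log2 fold changes of -0.02, 0.02 and -0.08 (edgeR adjusted p 0.858, 0.838 and 0.411). CEP41, a centrosomal protein gene at 43.7 kb, had 0.03, 0.12 and 0.01 (adjusted p 0.777, 0.0936 and 0.966). Beyond CEP41 on the same side lies CPA4, an imprinted carboxypeptidase gene, with 90 and 72 counts in WT, 2 and 2 in TET2KO 1, 2 and 4 in TET2KO 2, and 8 and 4 in TET2KO 3. CPA4 fell, with log2 fold changes of -5.23 (SE 0.65), -4.70 (SE 0.60) and -3.71 (SE 0.51) and adjusted p 3.36e-12, 6.62e-12 and 4.55e-10. On the right, MKLN1 at 604 kb had -0.14, 0.08 and -0.24 (adjusted p 0.0343, 0.257 and 6.27e-05). In batch 1, where MEST was low, CPA4 had 0 to 2 counts per library.

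**Figure D4:**
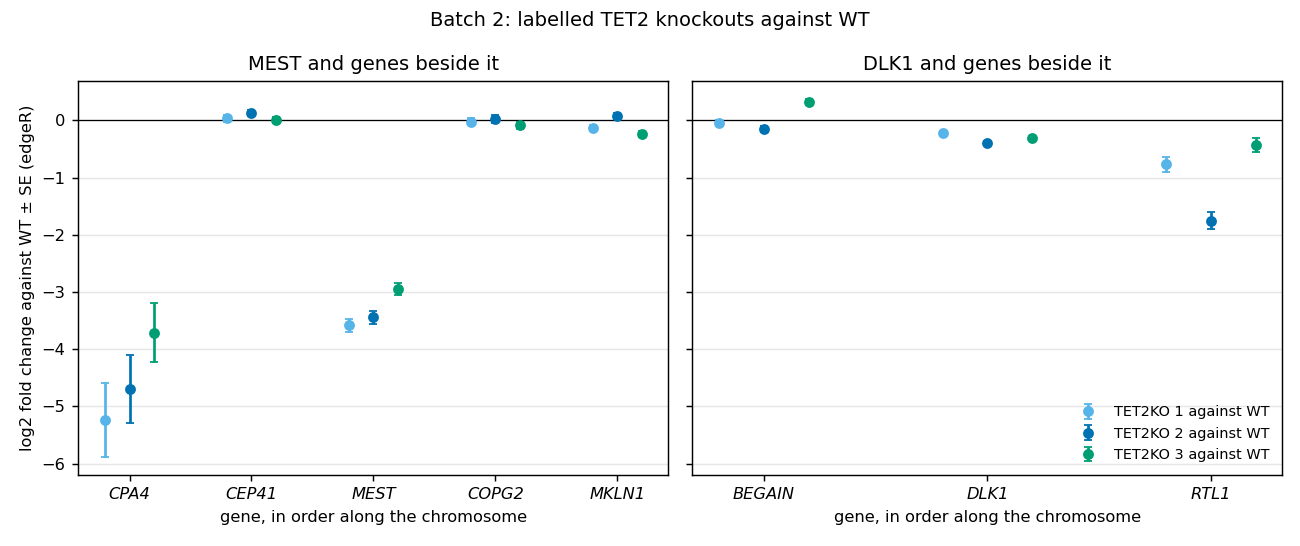
Log2 fold change against WT with its standard error (bars) for MEST and genes on either side (left) and DLK1 and the genes on either side (right), in chromosome order, 1 colour per labelled knockout. MEST and CPA4 lie near or below -3 while CEP41, COPG2 and MKLN1 lie close to 0 on this scale, and RTL1 is lowest in TET2KO 2.

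The genes most like MEST over the 8 batch 2 libraries were PTX3 (r 0.99), CPA4 (0.985) and POSTN (0.976), of 629 with an SD of at least 0.5 times that of MEST, and again the libraries form groups. PTX3, a secreted pattern recognition protein, was at 28.8 and 28.2 CPM in WT and at 2.43 to 3.28 CPM in the labelled knockouts. POSTN, a matrix protein that is also 1 of the 12 mesenchymal markers checked, was at 39.8 and 38.9 CPM in WT and at 4.39 to 5.40 CPM in the labelled knockouts. The summed level of the 12 mesenchymal markers was 1794 to 1804 CPM in WT, 1372 to 1420 in TET2KO 1, 1464 to 1489 in TET2KO 2 and 1285 to 1312 in TET2KO 3. Most of that sum was the intermediate filament gene VIM, with group means of 839 CPM in WT and 891, 879 and 798 CPM in TET2KO 1, 2 and 3. Of the 11 tested, 6, 7 and 5 fell and 3, 2 and 3 rose in TET2KO 1, 2 and 3. The shares of all genes called lower were 9.72%, 14.3% and 9.96%, and those called higher 7.79%, 12% and 8.9%. DCN, also on this list, was at 21.5 and 21.5 CPM in WT and lay higher in every labelled knockout library, at 36.3 to 47.8 CPM. TWIST1 went both ways, with group means of 60.0 CPM in WT and 71.9, 50.4 and 73.9 CPM in TET2KO 1, 2 and 3. The collagen gene COL3A1 was at 158 and 152 CPM in WT and fell, with log2 fold changes of -3.38, -2.49 and -3.59 in TET2KO 1, 2 and 3 (edgeR adjusted p 3.02e-128, 2.07e-111 and 3.25e-131). FN1, the gene of fibronectin, was at 325 and 306 CPM in WT and fell, at -2.45, -1.23 and -2.53 (adjusted p 9.29e-130, 3.18e-81 and 5.74e-132). COL1A2 was at 0 in WT and TET2KO 2 and PRRX1 in TET2KO 1 and 3. The 8 endothelial markers summed to 14.2 to 14.4 CPM in WT and 2.33 to 6.37 in the labelled knockouts, and 7, 4 and 5 of the 8 fell. The 5 Schwann markers in the tables summed to 11.1 to 11.9 CPM in WT and 5.02 to 8.18 in the labelled knockouts, with FOXD3 at 0 in every group and SOX10 at 0 in TET2KO 1. Of these the receptor ERBB3 fell in each labelled knockout (-0.72, -1.64 and -0.68, adjusted p 1.91e-06, 9.36e-21 and 5.98e-06). The part of these in the differences of batch 2 was not tested.

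DLK1 was at 1229 and 1254 CPM in WT, 1018 and 1107 CPM in TET2KO 1, 927 and 958 CPM in TET2KO 2, and 1009 and 989 CPM in TET2KO 3. Every labelled knockout library was below both WT libraries, with log2 fold changes of -0.23 (SE 0.03), -0.40 (SE 0.03) and -0.31 (SE 0.03). RTL1 was at 10.5 and 9.72 CPM in WT, 5.69 and 6.13 in TET2KO 1, 3.26 and 2.70 in TET2KO 2, and 7.42 and 7.62 in TET2KO 3. It fell, with log2 fold changes of -0.77, -1.76 and -0.43 (edgeR adjusted p 1.83e-07, 2.68e-23 and 0.00440), so DLK1 and RTL1 were both lowest in TET2KO 2. The summed sympathoadrenal markers were likewise lowest there, at 8691 to 8895 CPM in WT, 8440 to 8542 in TET2KO 1, 6620 to 6729 in TET2KO 2 and 8573 to 8670 in TET2KO 3. Of the 10 markers tested, 2, 4 and 4 fell and 4, 3 and 3 rose, and their part in the DLK1 difference was not tested. Over all genes, 9.72%, 14.3% and 9.96% were called lower and 7.79%, 12% and 8.9% higher. For BEGAIN the log2 fold change was -0.04 in TET2KO 1 (adjusted p 0.666), it fell by 0.15 in TET2KO 2 (adjusted p 0.0242), and it rose by 0.32 in TET2KO 3 (adjusted p 1.08e-07).

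IGF2 was at 124 and 108 CPM in WT, 87.1 and 97.8 CPM in TET2KO 1, 90.4 and 97.8 CPM in TET2KO 2, and 76.2 and 81.6 CPM in TET2KO 3. No labelled knockout library reached the lower WT library, and the log2 fold changes were -0.33, -0.30 and -0.56 (SE 0.05 in each). NDN (chromosome 15, 23685400 to 23687305, minus strand) had 52 and 49 counts in WT, 18 and 14 in TET2KO 1, 38 and 50 in TET2KO 2, and 40 and 20 in TET2KO 3. TET2KO 1 and 3 lay below WT and TET2KO 2 overlapped it, with log2 fold changes of -1.63 (SE 0.47), -0.20 (SE 0.36) and -0.73 (SE 0.40). SNRPN, the next tested gene to its right and imprinted in the same chromosome 15 cluster, had -0.22, 0.11 and 0.02 (edgeR adjusted p 0.219, 0.528 and 0.927).

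PEG10 and SGCE differed little between groups. PEG10 was at 477 and 454 CPM in WT and at 437 to 466 CPM in the 6 labelled knockout libraries, and its 3 groups of knockout libraries all overlapped WT. SGCE was at 39.0 and 38.2 CPM in WT and 38.7 to 41.0 CPM in the others. Log2 fold changes were -0.02, -0.05 and -0.06 for PEG10 (SE 0.03 in each) and 0.05, 0.04 and 0.04 for SGCE (SE 0.06 in each).

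The remaining members were too low for a fold change of use. CDKN1C had 16 and 12 counts in WT, 8 and 14 in TET2KO 1, 8 and 6 in TET2KO 2, and 2 and 4 in TET2KO 3. GRB10 had 16 and 16 counts in WT, 6 and 12, 14 and 26, and 12 and 12 in TET2KO 1, 2 and 3. PEG3 had 2 and 3 counts in WT, 8 and 6 in TET2KO 1, 22 and 8 in TET2KO 2, and 2 and 0 in TET2KO 3. The ratio of PEG3 in TET2KO 2 to WT was 6.0, with a 95% exact interval of 2.31 to 19.8 that covers counting error only and is too narrow where counts come in pairs. PLAGL1 had 2 to 12 counts per library. These genes lie on chromosome 7 (GRB10, 50590063 to 50793462), chromosome 19 (PEG3, 56810077 to 56840728) and chromosome 6 (PLAGL1, 143940300 to 144064599), all on the minus strand.

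The labelled knockouts also differed among themselves, in a comparison on the same 6 libraries. This comparison is made of differences between the comparisons with WT from which the genes were chosen. A single edgeR F-test found a difference for 4 of the 8 genes, where 37.6% of all genes differed. Nothing is read from this number, and the p-values below are no separate support. The gap between the highest and lowest labelled knockout was 0.63 on the log2 scale for MEST (adjusted p 0.0101), 0.17 for DLK1 (adjusted p 1.60e-06), 0.26 for IGF2 (adjusted p 3.94e-06) and 1.43 for NDN (adjusted p 0.0374). By DESeq2 the number was 2, with IGF2 (adjusted p 0.0720) and NDN (adjusted p 0.0589) lost. MEST lost its call without replicate 2 of TET2KO 1 (adjusted p 0.0657) or replicate 1 of TET2KO 3 (adjusted p 0.135). NDN lost it without either replicate of TET2KO 1 or either replicate of TET2KO 2 (adjusted p 0.0569 to 0.220). PEG10, SGCE, GRB10 and CDKN1C did not pass (adjusted p 0.543, 0.999, 0.350 and 0.305).

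Other imprinted genes changed in both directions, and in each labelled knockout more of them fell than rose, as among all genes tested. Of 47 listed, 36 were tested in batch 1 and 37 in batch 2. At 10 µM, 7 rose and 5 fell, where 11.6% of all genes were called higher and 11.1% lower. At 50 µM, 11 rose and 12 fell, where 30.4% of all genes were called higher and 31.1% lower. Those called at 50 µM included GNAS (0.28, edgeR adjusted p 8.96e-49), a G protein subunit, INPP5F (-0.52, adjusted p 2.29e-33), a phosphatase, and RTL1. In TET2KO 1, 2 and 3, 3, 4 and 3 of the 37 rose and 7, 8 and 5 fell, where 7.79%, 12% and 8.9% of all genes were called higher and 9.72%, 14.3% and 9.96% lower. Whether the list differs from other genes in direction was not tested. After CPA4 and RTL1 these included WT1, a zinc finger factor (-1.36 in TET2KO 1, edgeR adjusted p 2.33e-09), and TFPI2, a protease inhibitor. TFPI2 fell in TET2KO 3 (-1.57, edgeR adjusted p 7.69e-05). The TFPI2 libraries of TET2KO 2, with 3.30 and 3.80 CPM, lay above those of WT, with 2.11 and 1.53 CPM. DDC, also listed, rose in TET2KO 1 and 3, by 0.25 and 0.14 (edgeR adjusted p 6.21e-11 and 9.47e-04). In TET2KO 2 DDC was lower, at -0.10 (edgeR adjusted p 0.0144). The medians of the list were 0.06, 0.02, -0.13, -0.06 and -0.08 in the order given, against 0.00 over all genes tested.

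Factors that maintain imprints moved by small amounts. At 50 µM, 7 of 13 rose and 5 fell, where 30.4% of all genes were called higher and 31.1% lower. TRIM28, a corepressor recruited to imprinted control regions, rose by 0.31 (edgeR adjusted p 9.09e-31), and DNMT1, the maintenance methyltransferase, fell by 0.17 (adjusted p 2.26e-13). In TET2KO 1, 2 and 3, 3, 5 and 2 rose and 2, 3 and 5 fell. TET2 itself is on the list and among those that rose in TET2KO 1 and 2. Over all genes, 7.79%, 12% and 8.9% were called higher and 9.72%, 14.3% and 9.96% lower. TRIM28 was at 0.19 and 0.13 in TET2KO 1 and 3 (edgeR adjusted p 9.94e-07 and 0.00145) and TET1 at -0.29 in TET2KO 3 (adjusted p 1.07e-04).

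Partners of the members changed in both directions. At 50 µM, 30.4% of all genes were called higher and 31.1% lower, the shares to set beside the counts below. In TET2KO 1, 2 and 3 these shares were 7.79%, 12% and 8.9% higher and 9.72%, 14.3% and 9.96% lower. In the IGF axis, 7 of 12 genes rose and 2 fell at 50 µM, with the smallest adjusted p for the receptor IGF1R (0.35, edgeR adjusted p 2.39e-35). The binding protein IGFBP5 rose by 0.58 (adjusted p 4.27e-33), and IRS1, an adaptor of the insulin and IGF receptors, fell by 0.64 (adjusted p 1.10e-16). In TET2KO 1, 2 and 3, 2 of the 12 rose in each and 4, 5 and 5 fell. The binding protein IGFBP3, at 58.1 and 54.7 CPM in WT, fell, at -1.87, -0.51 and -2.51 (adjusted p 3.64e-67, 5.74e-14 and 5.05e-82), and IGF1R fell in TET2KO 1 and 2, at -0.31 and -0.33 (adjusted p 1.82e-10 and 1.87e-12). Among 10 tested cyclins, kinases and inhibitors related to CDKN1C, 3 rose and 5 fell at 50 µM. CDKN1A, the p21 inhibitor of the same family, rose by 0.46 at 10 µM and 1.19 at 50 µM (adjusted p 9.73e-12 and 3.19e-52) where CDKN1C was lower. In TET2KO 1, 2 and 3, 2, 3 and 3 of them rose and 1, 2 and 1 fell, with the cyclin CCND1 at 0.25, 0.38 and 0.15 (adjusted p 2.84e-12, 3.43e-25 and 2.29e-05). Of the 4 Notch receptors, on which DLK1 acts, 1 rose and 1 fell at 50 µM and 1, 2 and 3 fell in TET2KO 1, 2 and 3. NOTCH1 rose by 1.00 at 50 µM (adjusted p 1.02e-10) and fell in TET2KO 1, 2 and 3, at -1.53, -1.49 and -1.80 (adjusted p 1.04e-14, 1.69e-14 and 6.29e-18). With CoCl2 the markers of other cells moved too: the summed mesenchymal markers were 1627 to 1636 CPM in H2O and 2043 to 2059 CPM at 50 µM. VIM made up most of this, with group means of 1137 and 1521 CPM, while 4 of the 10 tested rose and 4 fell (PDGFRB, COL3A1, LUM and TWIST1), and the list's median log2 fold change was -0.17. The 6 immune markers summed to 5.75 to 5.95 CPM in H2O and 19.3 to 19.7 CPM at 50 µM, of which CD68, a lysosomal protein, was 5.20 and 18.9 CPM on average and rose. CD14, the only other immune marker tested, was at 0.609 and 0.500 CPM on average and was not called. The summed sympathoadrenal markers were 11911 to 11935 CPM in H2O, 12551 to 12624 CPM at 10 µM and 10572 to 10652 CPM at 50 µM, where 5 of the 10 tested rose and 4 fell. PTPRC, LYZ, CD3E and MS4A1 had 0 to 3 counts per library, with MS4A1 at 0 in all 3 groups, and the part of these markers in the CoCl2 differences was not tested.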

How the data were processed

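Polyadenylated RNA from 14 libraries was analysed from raw counts per gene name, which the authors made with featureCounts over exons of protein-coding genes in GRCh38 coordinates, without a strand option, per the file headers. The submitters' processing notes name Trimmomatic 0.36, STAR 2.6.1d and Subread 1.5.3. The file headers give featureCounts 1.5.3 in batch 1 but 2.0.5 in batch 2, where 13 mitochondrial genes had counts against 0 in batch 1. The deposited counts were fitted per batch in R 4.3.3 with edgeR 4.0.16 (filterByExpr, TMM, quasi-likelihood F-test, 1 coefficient per group, Benjamini-Hochberg adjustment over all genes tested, dispersion at least 0.0001001). CPM are TMM-scaled, and a level per length divides them by the exonic length in the files. The replicates differed by more than counting noise (chi-square per gene 1.23 to 1.46 in batch 1, and in batch 2 3.86 to 5.52, or 1.95 to 2.83 with counts halved) and were kept apart. SE is the log2 fold change over the square root of F. Alternatives were RLE size factors, DESeq2 1.42.0, no filter, the older quasi-likelihood method, halved counts, a fit of all 14 libraries, a replicate block and each library left out. The members and lists were chosen with earlier results of these data known. Named were all members, TET2, their neighbours, up to 3 called genes with the smallest adjusted p per list and comparison, and the 3 genes most correlated with the member of largest change. Some marker genes are not reported here.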

Additional observations from a re-analysis of the deposited data

Results flagged for a closer look

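Among the labelled knockouts, 4 of the 8 imprinted genes tested differed by the edgeR test of the difference itself, where 37.6% of all genes did. Nothing is read from this number, since the genes were chosen from comparisons of these libraries with WT. By DESeq2, IGF2 and NDN were not called, and MEST and NDN lost their calls in some fits with 1 library left out. The gap in log2 fold change between the highest and the lowest labelled knockout was 0.63 for MEST (TET2KO 3 highest, TET2KO 1 lowest) and 0.17 for DLK1 (TET2KO 1 highest, TET2KO 2 lowest). It was 0.26 for IGF2 (TET2KO 2 highest, TET2KO 3 lowest) and 1.43 for NDN (TET2KO 2 highest, TET2KO 1 lowest).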

How the results depend on the processing

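Of 331 recomputed values of the imprinted genes under other settings, 329 stayed within the spread between replicates or, where a test was given, on the same side of the threshold, and the other 2 were the IGF2 and NDN differences among the labelled knockouts under DESeq2. With 1 library left out, 372 of 382 did so. Without replicate 1 at 10 µM the change of NDN between the doses was 0.11, and without replicate 1 at 50 µM it was 0.0020, against -0.11, and the lowest value with 1 library left out was -0.32. In counts over all genes, DESeq2 gave 1121 and a fit of all 14 libraries 796 at 10 µM against 3098, and that fit gave 4674 between the doses against 7198. Called members were 4 at 10 µM with no dispersion floor, an alternative chosen after seeing the data, against 2 (PEG10 and IGF2 were added), and 2 among the labelled knockouts with DESeq2, against 4. With each library left out, calls over all genes were 1860 to 3291 at 10 µM, 7331 to 8370 at 50 µM, 5979 to 7222 between doses, 1375 to 2586, 2406 to 3766 and 1568 to 2615 for TET2KO 1, 2 and 3, and 3754 to 5363 among them. The counts moved by over 1.5 times without replicate 1 of H2O (2063 at 10 µM) or replicate 2 at 10 µM (1860), without replicate 1 of WT (1619 for TET2KO 1 and 1616 for TET2KO 3), and without replicate 2 of TET2KO 1 (1375), replicate 1 of TET2KO 2 (2406) or replicate 1 of TET2KO 3 (1568). Called members were 2 to 3 at 10 µM, 5 at 50 µM and between doses, 3 to 4 in TET2KO 1 (NDN was lost without replicate 2 of TET2KO 1), 3 to 4 in TET2KO 2, 3 in TET2KO 3 and 3 to 5 among them. The low genes GRB10 and CDKN1C moved beyond the replicate spread, to -1.32 without replicate 2 of TET2KO 1 and to -2.80 without replicate 2 of TET2KO 3. Where this left a group with 1 library, that library was assumed to vary like the others.

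The replicate numbers did not pair the libraries, since deviations of same-numbered libraries correlated at -0.060 to 0.035. With the replicate block the calls over all genes were 2968, 8303 and 7113 for the CoCl2 comparisons, 2228, 3502 and 2458 for TET2KO 1, 2 and 3, and 5054 among them. The block left the number of called members as it was in each comparison.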
